A study of Oryza sativa with 20 samples.

Results

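Of the 6080 features of the rice cDNA microarray, 96 were first higher in chilled than in control seedlings at 12 hours. A feature is a spotted cDNA made from an expressed sequence tag. A feature counted as higher at a time point when the log2 ratio of chilled over control reached that of a 1.8-fold difference in both biological replicates, and the 96 did so at 12 hours but not at 0.5, 2 or 6 hours. The features were thus chosen by their ratios at these 4 time points, which are given as a description without a test; the ratios at 24 hours played no part in the choice. At 12 hours 141 of 6027 features with both values were higher (2.34%), the other 45 of them having also been higher at 1 or more of the earlier times (3.04% of all features at 0.5 hours, 2.49% at 2 hours and 2.39% at 6 hours). First higher at 6 hours were 81 features, a set that overlaps with the 45.

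Seedlings of the chilling-tolerant japonica cultivar CT6748-8-CA-17 were grown at 29°C to the S3 stage and then held at 10°C for 0.5, 2, 6, 12 or 24 hours, with separate controls kept at 29°C for each time, both under continuous light. RNA of chilled seedlings carried Cy3 and that of their controls Cy5, and both were hybridized to the same slide, on which each feature was spotted in duplicate. There were 2 biological replicates per time point, on 10 slides, and the p-values below measure the spread between these replicates. The features came from a subtracted library of cold-stressed seedlings and a library of drought-stressed plants, which limits the genes that could be seen.

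Every value is a ratio within a slide, so the table gives no level of any transcript and the seedling tissue could not be checked against marker levels. Of 3 features in the list for photosynthesis, none was among the 96, and the list for root tissue matched no feature. The series text says that the dyes were not swapped, in which case any dye effect enters all ratios. The RNA was taken in bulk, from frozen shoots per the methods, so fewer cells of a type and less RNA per cell cannot be told apart. The deposited columns of replicate 2 at 2 hours correlated with replicate 1 at r = -0.43 across features and were turned in sign, while the labels name the same dyes for them as for the others. Whether the dyes of that slide were exchanged or its ratio was inverted is not known. With their sign as deposited 100 features met the rule, all 96 among them. One deposited column of replicate 2 at 6 hours names 0.5 hours in its source label for the chilled channel, and was kept at 6 hours after its title.

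Rice is a plant of warm climates, and chilling of seedlings slows enzyme reactions and membrane processes before any ice is formed. Plant cells answer low temperature in waves, in which signalling components and transcription factors act on genes for metabolism, membranes, protein folding and protection. Enzymes of glycolysis and of the citric acid cycle, which supply energy and carbon skeletons, and the genes of the circadian clock are among those known to respond to temperature in plants.

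In replicates 1 and 2 the medians of the 96 features were -0.25 and 0.47 at 0.5 hours and 0.34 and 0.07 at 2 hours. The 0.47 and the 0.34 lay above the upper quartiles of all features (0.43 and 0.28), while the replicates of 0.5 hours went opposite ways. At 6 hours most of the 96 features were already above the others, with medians of 0.60 and 0.64 in the 2 replicates against 0.01 and 0.00 for all features. Over time the median of their mean log2 ratios was 0.03 (0.5 hours), 0.21 (2 hours), 0.64 (6 hours), 1.27 (12 hours) and 0.82 (24 hours). On the linear scale the medians at 12 and 24 hours were 2.42-fold and 1.77-fold. Means at 12 hours ran between 0.90 and 2.37, with a median replicate SD of 0.31 for the 96 features and 0.24 for all features (n = 2). The ratios at 6 hours lay above 0 in both replicates for 81 of the 96, a share that was not counted over all features at that time.

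**Figure D1:**
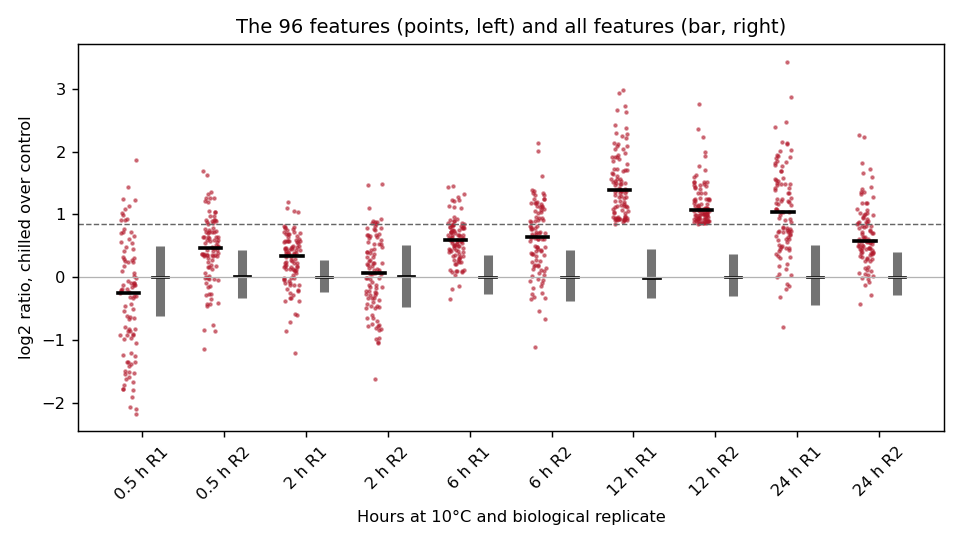
Log2 ratio of chilled over control (y axis) in each biological replicate of each time point (x axis). Points are the 96 features first higher at 12 hours with their median as a black bar, and the grey bar to their right spans the quartiles of all features; the dashed line marks 1.8-fold, which all 96 pass at 12 hours by choice and 21 pass in both replicates at 24 hours.

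The word first rests on both replicates, and 63 of the 96 features had reached 1.8-fold in 1 replicate at an earlier time. At 6 hours alone 51 had done so, 17 in replicate 1 and 34 in replicate 2, against 6.23% and 11.8% of all features. At 0.5 hours 33 had, 11 and 22 of 95 values, against 12.3% and 10.5% of all features. At 2 hours 13 had, 4 and 9, against 4.14% and 13.3%. The counts at 2 hours, and that of replicate 1 at 0.5 hours, were thus near or below the share of all features. The remaining 33 features stayed under the threshold in every value before 12 hours. The lower of the replicate values at 12 hours was closest above the threshold in LOC4350305 (0.849, with 0.999 in the other replicate), followed by LOC4336212, SDH5, LOC4324151 and LOC4331747. Closest below it were LOC4325257 (0.848, with 1.31 in the other replicate), LOC4325503, LOC4341860, LOC4337569 and LOC4340675, so the border of the set runs through features with nearly equal values.

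At 0.5 hours the replicates differed most. In replicate 1 the median of the 96 features was -0.25 and 33 lay above 0, whereas in replicate 2 the median was 0.47 and 74 lay above 0. For 48 features the ratio was below 0 in replicate 1 and above 0 in replicate 2. In 24 features it was below -1 in replicate 1, as it was in 14.1% of all features, and 22 of these 24 were above 0 in replicate 2. The replicates of 0.5 hours correlated at r = 0.07 over all features, against 0.34 to 0.43 at the later times. A ratio below 0 at 0.5 hours was thus seen in 1 replicate only for most of the features that had one (14 were below 0 in both), and what set the replicates apart was not tested.

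**Figure D2:**
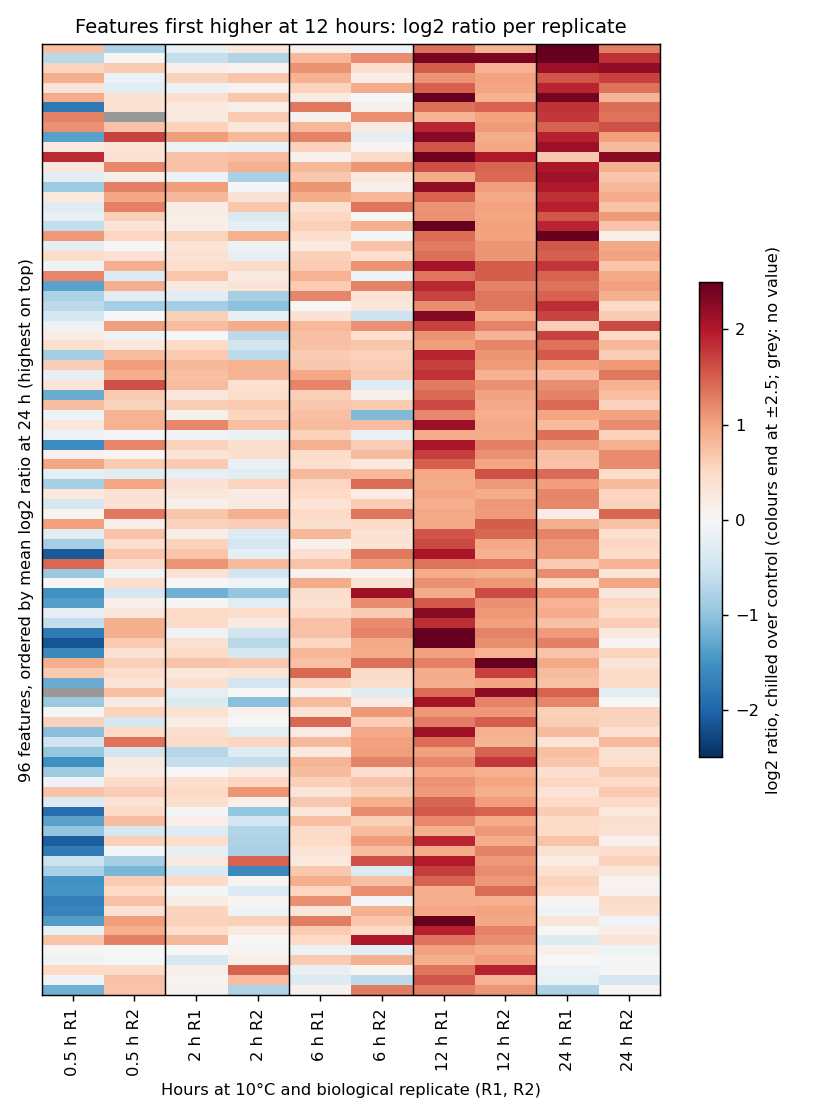
Log2 ratio of chilled over control (colour) of the 96 features (rows, ordered by their mean at 24 hours) in each replicate of each time point (columns). The blue block at 0.5 hours is confined mostly to replicate 1, the red block at 12 hours is fixed by the choice of the features, and at 24 hours replicate 1 is the redder of the 2 for 71 features.

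Annotation gave a single gene for 79 of the 96 features, which stand for 78 genes, several genes for 2 and none for 15. A gene symbol was available for 20 features. The study's own list of chilling-induced genes, drawn from these same samples and therefore not independent of them, holds 20 of the 96, all in its slow-response class Group-II, which has 81 features on the array. None of the 18 features of its rapid class Group-I was among the 96. In all, 35 features carried a symbol or an annotation from that list and are described below by role, together with the extremes at 12 and 24 hours. The roles are background knowledge of the proteins and were assigned after the values had been seen.

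Enzymes of central carbon metabolism made up the largest group that could be named. Over 8 features the median log2 ratio was 1.38 after 12 hours and 0.75 after 24 hours, and all 8 were above 0 in both replicates at 24 hours. None of the 8 passed the test at 24 hours, and 1 was at 1.8-fold or more in both replicates. OSE1, the glycolytic enzyme enolase, was represented by 2 features. Feature 3047 had log2 ratios of 2.66 and 1.02 at 12 hours and 1.91 and 0.71 at 24 hours, and feature 3877 had 0.94 and 1.24 at 12 hours and 0.37 and 0.43 at 24 hours. Both cDNAs of the same gene were thus past the threshold at 12 hours, while at 24 hours the 2 replicates of feature 3047 fell on either side of it. In the group's other genes with a second feature, given below, that feature was not past the threshold in both replicates at 12 hours.

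LOC4337406, annotated as the cytosolic pyruvate kinase that closes glycolysis, had log2 ratios of 1.91 and 0.93 at 12 hours and 0.72 and 0.11 at 24 hours. PGI-A, glucose-6-phosphate isomerase, had 1.57 and 1.44 at 12 hours and 1.24 and 0.40 at 24 hours. LOC4350861, annotated as mannose-6-phosphate isomerase, which links mannose to fructose phosphates, had 1.53 and 1.14 at 12 hours and 0.87 and 0.54 at 24 hours. In each of these 3 the values at 24 hours were below both values at 12 hours. Of the 20 features in the fixed list for glycolysis and fermentation, 3 were higher at 12 hours, against 2.34% of all features, and these were the enolase and pyruvate kinase features just given. The list as a whole had a median of 0.51 at 12 hours and 0.41 at 24 hours, against 0.03 for all features at 24 hours, and 0 of its features passed the test in either direction. Besides symbols, this list took annotations from the study's list of genes induced in these samples, through which the pyruvate kinase entered. Its share and medians thus include features chosen for high values and are no independent result.

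The citric acid cycle contributed SCS-beta and SDH5, and a cytosolic malate dehydrogenase is given with them. SCS-beta, a subunit of succinyl-CoA ligase, had log2 ratios of 2.03 and 1.27 at 12 hours and 1.04 and 0.89 at 24 hours, the single feature of the 8 with both replicates past 1.8-fold at the later time (adjusted p = 0.299 by limma). SDH5, a subunit of succinate dehydrogenase, had 1.40 and 0.86 at 12 hours and 0.33 and 0.81 at 24 hours. LOC4348905, annotated as cytosolic malate dehydrogenase, had 1.66 and 0.94 at 12 hours and 1.09 and 0.52 at 24 hours. Its second feature, 889, had -0.74 and 0.51 at 12 hours and -0.86 and -0.18 at 24 hours. Second features of PGI-A (0.67 and 0.35), SCS-beta (1.41 and 0.01) and LOC4337406 (0.34 and 1.17) also missed 1.8-fold in 1 or both replicates at 12 hours. All 8 carbon metabolism features were below 0 in replicate 1 at 0.5 hours, where the median of the 96 was also below 0.

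Other biosynthetic and storage proteins had a median over 6 features of 1.28 after 12 hours and 1.04 after 24 hours. LOC4324398, annotated as NADH-glutamate synthase, which builds glutamate from glutamine, had log2 ratios of 1.495 and 0.99 at 12 hours and 1.90 and 1.36 at 24 hours. It was higher than its controls at 24 hours (1.63, SE 0.27, adjusted p = 0.0235 by limma). LOC4351264, annotated as ferritin, which stores iron in plastids, had 1.38 and 1.47 at 12 hours and 1.81 and 1.40 at 24 hours, and its mean of 1.61 at 24 hours did not pass the test (SE 0.43, adjusted p = 0.0757 by limma). Its earlier values were -1.80 and 0.36 at 0.5 hours, 0.25 and 0.15 at 2 hours and 1.32 and 0.12 at 6 hours, so that both replicates were high only in the last 2 time points.

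PSY2, phytoene synthase of the carotenoid pathway, had log2 ratios of 1.71 and 1.25 at 12 hours and 0.62 and 1.66 at 24 hours. PDX11, which takes part in vitamin B6 synthesis, had 1.03 and 1.48 at 12 hours and 0.75 and 0.38 at 24 hours. Its values at 0.5 and 2 hours were all below 0, between -0.96 and -0.32. LOC4334073, annotated as ATP sulfurylase, the entry step of sulfate assimilation, had 0.93 and 1.63 at 12 hours and 1.14 and 0.29 at 24 hours, after 0.44 and 2.13 at 6 hours. LOC4342824, annotated as guanine deaminase of purine breakdown, had 0.96 and 1.59 at 12 hours and 1.43 and 0.47 at 24 hours, and its replicates were close to each other at 6 hours, at 0.81 in both.

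Among genes of transcription the highest mean at 12 hours belonged to CCA1, the MYB factor of the central circadian oscillator. CCA1 feature 3827 had log2 ratios of 1.94 and 1.24 at 12 hours and 0.03 and 0.17 at 24 hours. Its mean of 0.10 at 24 hours did not pass the test (SE 0.30, adjusted p = 0.883 by limma). A second CCA1 feature, 3095, had 2.71 and 2.35 at 12 hours and -0.81 and 0.54 at 24 hours, and is outside the 96 because it had already reached 1.04 and 1.57 at 6 hours. Both features of the gene therefore had their highest mean of the 5 time points at 12 hours and a mean near 0 at 24 hours. The fixed list for the circadian clock held 4 features, of which 2 were higher at 12 hours, both of them CCA1, and none passed the test at 24 hours.

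IAA19, an auxin-inducible repressor of auxin signalling, had log2 ratios of 1.69 and 1.34 at 12 hours and 1.48 and 0.88 at 24 hours. Before that its values were -0.79 and -0.27 at 0.5 hours, -0.27 and -0.84 at 2 hours and 1.23 and 0.35 at 6 hours, below 0 in all 4 of the first values. OsARF1, an auxin response factor, had 1.64 and 0.94 at 12 hours and 1.41 and 0.58 at 24 hours. The fixed list for auxin held 18 features, 2 of them higher at 12 hours, and its median was 0.13 at 12 hours. IAA30 and IAA3, of the same list, had means of 1.39 and 1.33 at 12 hours, above the 1.29 of OsARF1, but did not reach the threshold in both replicates. At 24 hours none of the 18 passed the test (adjusted p = 0.0719 for IAA19 by limma).

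TBP2, the TATA-binding protein that recruits the transcription machinery, had log2 ratios of 1.38 and 1.10 at 12 hours and 1.49 and 1.01 at 24 hours. It was higher than its controls at 24 hours (1.25, SE 0.26, adjusted p = 0.0390 by limma). The feature for wsl3, a component of the plastid RNA polymerase complex, had 1.34 and 1.51 at 12 hours and 1.48 and 0.96 at 24 hours. Of the 5 features of transcription, 3 were at 1.8-fold or more in both replicates at 24 hours, as were 21.9% of the 96 features and 3.37% of all features. The fixed list for transcription factors held 35 other features, of which 0 were higher at 12 hours. Its median was 0.07 at 12 hours and 0.09 at 24 hours, and 0 passed the test at 24 hours.

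**Figure D3:**
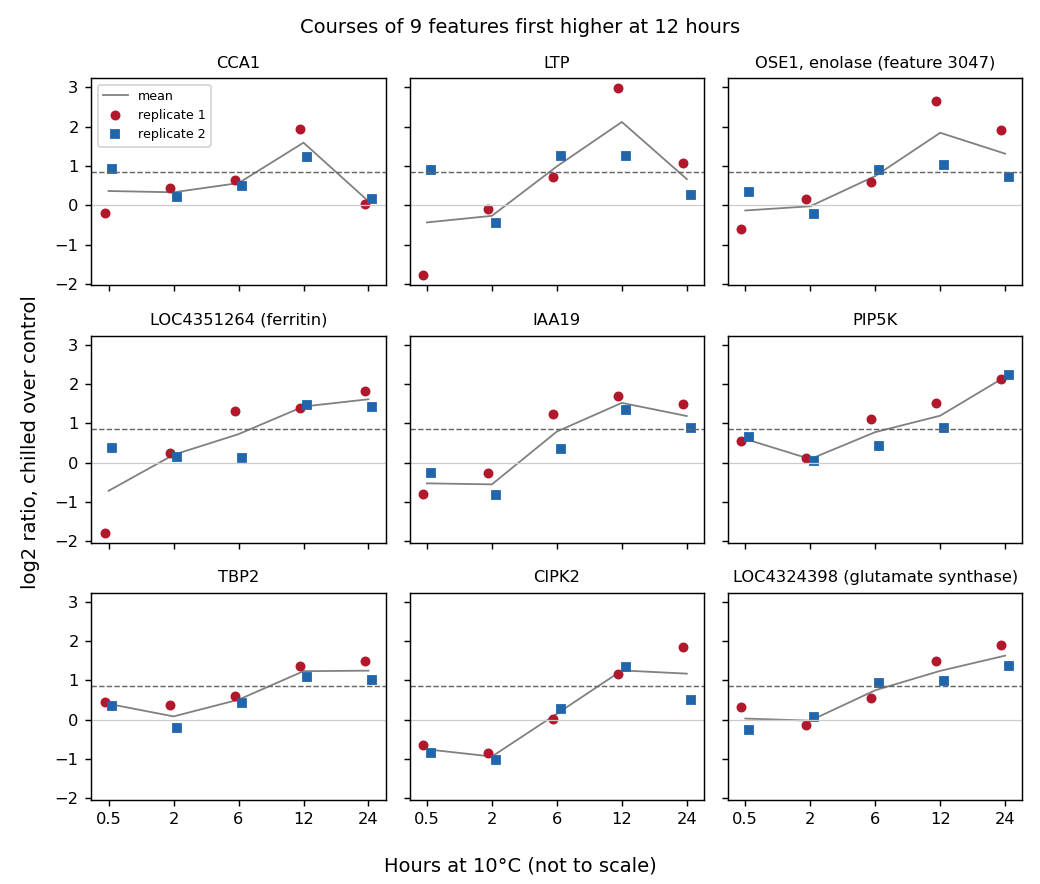
Log2 ratio of chilled over control (y axis) against hours at 10°C (x axis, not to scale) for 9 of the features first higher at 12 hours, with replicate 1 as circles, replicate 2 as squares, their mean as a line and 1.8-fold as a dashed line. CCA1 and LTP are high at 12 hours and lower at 24 hours, whereas PIP5K has 2.13 and 2.22 at 24 hours after 1.51 and 0.87 at 12 hours.

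Signalling proteins held 1 of the highest values at 24 hours. PIP5K, a phosphatidylinositol phosphate kinase that makes a membrane lipid signal, had log2 ratios between 0.05 and 0.65 at 0.5 and 2 hours, then 1.12 and 0.43 at 6 hours, 1.51 and 0.87 at 12 hours, and 2.13 and 2.22 at 24 hours. It was higher than its controls at 24 hours (2.18, SE 0.27, adjusted p = 0.00598 by limma). Both values at 24 hours were above both at 12 hours, which was the case for 3 of the 96 features, the others being LOC4350305 and LOC4340081. CIPK2, a kinase that acts with calcium sensors, had values between -1.02 and -0.65 at 0.5 and 2 hours, 0.03 and 0.28 at 6 hours, 1.17 and 1.34 at 12 hours and 1.84 and 0.51 at 24 hours. All 4 of its early values were thus below 0, and its mean of 1.17 at 24 hours did not pass the test (adjusted p = 0.0757 by limma).

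GF14G, a 14-3-3 protein that binds phosphorylated partners, had log2 ratios of 1.07 and 0.88 at 12 hours and 0.35 and 0.65 at 24 hours. SPX1, a sensor protein of phosphate signalling, had 1.27 and 1.52 at 12 hours and 0.61 and 0.55 at 24 hours, with replicates close to each other at both times. The fixed list for kinases and phosphatases held 45 features, of which PIP5K and CIPK2 were the 2 that were higher at 12 hours, against 2.34% of all features. Of its 43 tested features 2 were higher than their controls at 24 hours by limma and 0 lower, against 1.23% and 0.236% of all features. Its median was 0.18 at 12 hours and 0.14 at 24 hours.

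Proteins of synthesis, folding and traffic were near the lower end of the 96, with medians over 4 features of 0.97 after 12 hours and 0.52 after 24 hours on the log2 scale. LOC4342697, annotated as ribosomal protein S15, had 0.97 in replicate 1 at 12 hours and a mean of 0.98 there, and -0.11 and 0.39 at 24 hours. LOC4345009, annotated as ribosomal protein L7, had 0.91 and 0.99 at 12 hours and 0.74 and 0.47 at 24 hours. Both were below 0 in replicate 1 and above 0 in replicate 2 at 0.5 hours. The list for ribosome and translation held 19 features, 16 of them above 0 on average at 12 hours with a median of 0.47, and 0 passed the test at 24 hours. S15 and L7 entered it through the study's list of chilling-induced genes, so these values include features chosen for being high. PDIL1-1, a protein disulfide isomerase of the endoplasmic reticulum, had 0.93 and 0.90 at 12 hours and 1.18 and 0.31 at 24 hours. LOC4338357, annotated as the Rab-GDP dissociation inhibitor that recycles the Rab proteins of vesicle traffic, had 1.21 and 0.93 at 12 hours and 0.45 and 0.41 at 24 hours.

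LTP, a lipid transfer protein of the cell surface, had the largest single ratio of the 96 features at 12 hours. After -1.77 and 0.90 at 0.5 hours and -0.08 and -0.45 at 2 hours, its log2 ratios were 0.73 and 1.25 at 6 hours. They were 2.98 and 1.25 at 12 hours, and 1.06 and 0.26 at 24 hours. The replicates at 12 hours were far apart, and at 24 hours the mean of 0.66 did not pass the test (SE 0.53, adjusted p = 0.524 by limma). LOC4332267, annotated as a glycine-rich structural protein of the cell wall, had 1.48 and 1.08 at 12 hours and 0.57 and 0.06 at 24 hours. LOC4325480, annotated as related to potassium transport, had the lowest mean of the 96 at 12 hours, with 0.91 and 0.89, and 0.05 and 0.46 at 24 hours. Its 0.89 averages spots at 0.19 and 1.60.

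LOC4334641, annotated as a phosphoesterase, had log2 ratios of 0.92 and 1.42 at 12 hours and 2.11 and 0.70 at 24 hours. LOC4326855, annotated with a sugar kinase domain of the pfkB type, had 0.91 and 1.40 at 12 hours and 0.47 and 0.11 at 24 hours. LOC4324711, annotated as SF21-like, had 1.72 and 1.18 at 12 hours and 0.43 and 0.30 at 24 hours, after values of -0.81 and -1.14 at 0.5 hours and -0.37 and -1.62 at 2 hours. All 4 of its values before 6 hours were below 0. Its neighbour in the genome, LOC4324712, had 1.05 and 1.22 at 12 hours and 1.35 and 0.82 at 24 hours, and this was the only pair within 5 genes of each other among the 77 member genes that could be placed. LOC4326632, annotated only as an expressed protein, had 0.88 and 1.08 at 12 hours and 0.47 and 0.38 at 24 hours, and the feature for tom1 had 0.93 and 1.08 at 12 hours and 1.04 and 0.80 at 24 hours.

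Several of the highest ratios belonged to genes without an annotated role. LOC4324604 had the highest mean at 12 hours, with log2 ratios of 2.38 and 2.36, and 2.87 and 1.82 at 24 hours. At 0.5 and 2 hours its values were between -0.76 and 0.02, and at 6 hours they were 0.82 and 1.18. LOC4336941 had 2.43 and 2.00 at 12 hours and 0.67 and 2.26 at 24 hours, after 1.87 and 0.37 at 0.5 hours. Its 2.43 averages duplicate spots at 4.52 and 0.34, of which the second is below the threshold. Another feature of this gene, 2805, had 0.77 and 0.22 at 12 hours and 0.74 and -0.14 at 24 hours. LOC4338144 had 1.26 and 2.75 at 12 hours and 0.95 and 0.32 at 24 hours, and its 2.75 averages spots at 5.01 and 0.49. These 2 places among the highest ratios thus rest on 1 spot each. Feature 2517, with no gene, had 2.92 and 1.16 at 12 hours and 1.26 and 0.03 at 24 hours, after -2.17 and 0.65 at 0.5 hours. Of these 4, the replicates of LOC4324604 were the closest to each other at 12 hours. The other 4 of the 10 highest means without a named role were LOC4347571 (1.82), LOC4331617 (1.798), LOC4327051 (1.797) and LOC4339750 (1.79). Another feature of LOC4331617, 2604, had 0.34 and 1.71 at 12 hours. In LOC4347571 the spots of replicate 1 were at -0.40 and 3.20 and replicate 2 had a value from 1 spot only. At 12 hours the duplicate spots were more than 1 apart in 9 of the 96 features in replicate 1 and in 11 in replicate 2.

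At 24 hours 21 of the 96 features were at 1.8-fold or more in both replicates (21.9%), against 203 of 6027 features in all (3.37%). A further 33 were so in replicate 1 only, 9 in replicate 2 only and 33 in neither. The ratio was above 0 in both replicates for 86 of the 96, against 33.7% of all features, and below 0 in both for 1, against 32.7%. The median of the 96 was 0.82 at 24 hours (1.04 in replicate 1 and 0.58 in replicate 2), while that of all features was 0.03. In replicate 1 54 features and in replicate 2 30 features were at 1.8-fold or more, against 14% and 9.81% of all features. Replicate 1 thus carried more of the difference, and it was above replicate 2 in 71 of the 96 features at 24 hours and in 70 at 12 hours.

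Compared with the 2 sets most like it, the set first higher at 12 hours lay in between. Of 79 features first higher at 6 hours with both values at 24 hours, 11 were at 1.8-fold or more in both replicates (13.9%), with a median of 0.66. Of the 45 features higher at 12 hours and earlier, 16 were (35.6%), with a median of 0.97. These sets differ by the rule that made them, and the differences between them were not tested. The set of 6 hours and that of 12 hours and earlier share features, such as CCA1 feature 3095.

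**Figure D4:**
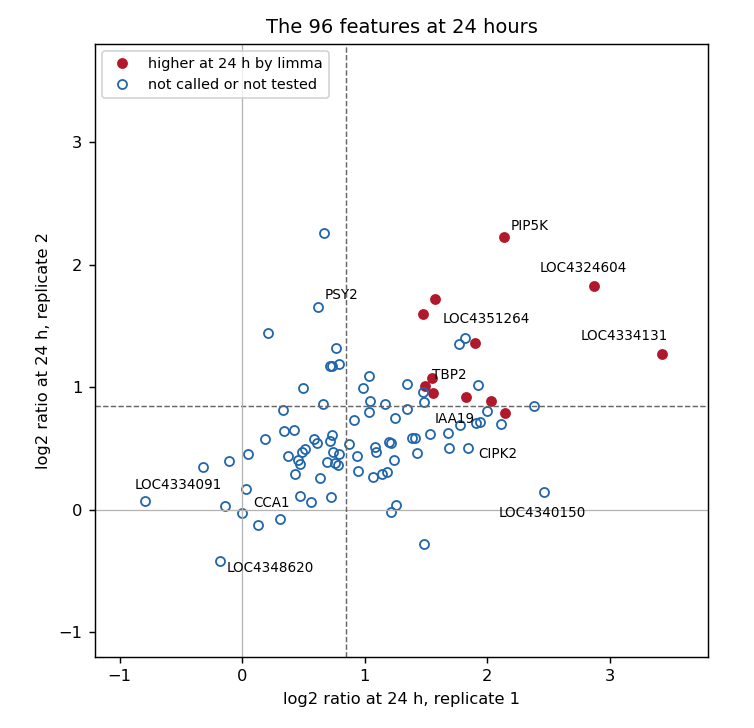
Log2 ratio at 24 hours in replicate 1 (x axis) against replicate 2 (y axis) for the 96 features first higher at 12 hours, with the 12 that passed the limma test as filled red points and the others as open blue points. Dashed lines mark 1.8-fold, which 21 features pass on both axes; most points lie right of the diagonal, that is, higher in replicate 1.

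By limma, 12 of the 94 features that could be tested rose at 24 hours (12.8%) and 0 fell, against 73 of 5926 features that rose (1.23%) and 14 that fell (0.236%). Here and below, rose and fell mean higher or lower than the controls of 24 hours, not a change since 12 hours. With the mean ratio of each column set to 1, as the methods describe, 2 features that met the rule rose and 0 fell, against 17 and 45 of all features. Without adjustment 53 of the 94 passed on the higher side and 0 on the lower side, against 13.3% of all features on the higher side. LOC4350305 and LOC4347571 lacked the value of 1 replicate at 0.5 hours and were not tested. A time with a missing replicate counted as not higher in the choice of the features. The value that LOC4350305 had at 0.5 hours was 1.25, past 1.8-fold, and that of LOC4347571 was 0.75. The 12 were PIP5K, LOC4324604, TBP2, LOC4324398, LOC4334131, LOC4340081, LOC4331518, LOC4332056, LOC4339487, LOC4346961 and features 2133 and 3888, which have no gene. The values of all time points enter the estimate of the spread in this fit. Over all features the pooled replicate SD was 0.79 at 0.5 hours and 0.50 to 0.59 at the later times. The values at 12 hours enter it too, and without the 12 hour slides 6 of the 12 still passed. With the 24 hour slides alone 0 of the 12 passed, with a lowest adjusted p of 0.0903.

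LOC4324604 and PIP5K were the calls that held most widely. LOC4324604 was higher than its controls at 24 hours, with a mean log2 ratio of 2.35 (SE 0.30, adjusted p = 0.00598 by limma) after 2.37 at 12 hours. Over the alternatives its adjusted p lay between 4.00e-05 and 0.129. For PIP5K it lay between 0.00346 and 0.0903. Each of these 2 stayed under the threshold in 22 of the 24 alternatives that refit the test, all but the 24 hour slides alone and the fit without replicate 1 of 24 hours. For the other 10 it stayed there in 8 to 17 alternatives (of 22 for LOC4340081, which lacked a value in the others), so these calls depend on how the values were processed.

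LOC4334131 had the highest mean at 24 hours of the 96. Its log2 ratios were 1.38 and 0.88 at 12 hours and 3.43 and 1.27 at 24 hours, with no value above 0.73 before 12 hours. It rose at 24 hours (2.35, SE 0.45, adjusted p = 0.0336 by limma), although its replicates were more than 2 apart. LOC4340081 had 1.12 and 1.001 at 12 hours and 1.58 and 1.72 at 24 hours, and LOC4331518 had 1.91 and 1.07 at 12 hours and 1.47 and 1.60 at 24 hours. These 2 had the closest replicates at 24 hours after PIP5K among the 12. In PIP5K and LOC4331518 the duplicate spots of replicate 2 at 24 hours were themselves more than 1 apart, at 2.87 and 1.58 and at 2.11 and 1.08. LOC4350305 had 1.77 and 1.35 at 24 hours after 0.849 and 0.999 at 12 hours, and its 1.77 averages spots at 2.96 and 0.58. The mean at 24 hours was above that at 12 hours in 17 of the 96 features.

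In 43 of the 96 features both values at 24 hours were below both values at 12 hours. LOC4348620 was the only one below 0 in both replicates at 24 hours, with log2 ratios of 1.56 and 0.88 at 12 hours and -0.18 and -0.42 at 24 hours. LOC4334091 had 1.28 and 1.11 at 12 hours and -0.79 and 0.07 at 24 hours, the lowest mean of the 96. LOC4328240 had 1.03 and 0.92 at 12 hours and 0.13 and -0.12 at 24 hours, and its earlier values all lay between -0.27 and 0.06. It was thus high in both replicates at 12 hours and near 0 in every other value. LOC4342537, LOC4339750 and features 3927 and 4117 were likewise close to 0 at 24 hours, with means of 0.01, 0.12, -0.01 and -0.06. In replicate 1 at 12 hours LOC4342537 and feature 4117 rest on 1 high spot each, with 3.09 beside -0.37 and -0.04 beside 2.73. None of these decreases relative to 12 hours was tested, because the values at 12 hours chose the features.

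The order of the features at 12 hours was not that at 24 hours. Across the 96 features the means of the 2 times correlated at r = 0.18, and of the 21 features past 1.8-fold at 24 hours 10 were in the upper 48 by their mean at 12 hours and 11 in the lower 48. Between replicates the values of the 96 correlated at r = 0.01 at 12 hours, where both are bounded by the threshold, and at r = 0.43 at 24 hours, against 0.39 over all features. The points of these correlations share slides and are not independent. At the level of spots 42 of the 96 features had all 4 spots at 1.8-fold or more at 12 hours and 13 had so at 24 hours.

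The features with the lowest ratios in replicate 1 at 0.5 hours were also followed to 24 hours. Of the 24 features below -1 there, 4 were at 1.8-fold or more in both replicates at 24 hours, with a median of 0.59, and of the other 72, 17 were, with a median of 0.97. The difference between these counts was not tested. Of the study's 20 listed features 2 were at 1.8-fold or more in both replicates at 24 hours, with a median of 0.68, and of the 76 others 19 were, with a median of 0.93. Listed features lay below 0 in replicate 1 at 0.5 hours in 19 of 20, with a median of -1.29, against 43 of the 76 others, with a median of -0.12.

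For 16 of the genes the array carried more than 1 feature, which gives a second reading of the same gene on the same slides. These genes had 33 features, 17 among the 96 and 16 outside. At 12 hours 11 of the 16 other features were above 0 in both replicates and 1, that of CCA1, was at 1.8-fold or more in both. Their mean log2 ratios at 12 hours ran between -0.96 and 2.53 with a median of 0.51, and the median at 24 hours was 0.16. The other features of the same genes were thus mostly on the same side but lower than the chosen ones, which were taken for their high values.

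In a few genes the features opposed each other. LOC4336313 had log2 ratios of 2.12 and 0.89 at 12 hours in feature 819 and of -1.24 and -0.68 in feature 3571. LOC4350861, the mannose-6-phosphate isomerase, had 1.53 and 1.14 in feature 3482 and -0.04 and -1.25 in feature 2994. The feature of wsl3 outside the 96 had -0.04 in both replicates. LOC4338357 was above 0 at 12 hours in all of its 3 features, with 1.67 and 0.81 in feature 3440 and 1.13 and 0.60 in feature 3879. Feature 3440 was already past 1.8-fold in both replicates at 2 hours (1.48 and 1.04) and at 6 hours (1.22 and 1.66). At 24 hours it had 2.11 and 1.64 (adjusted p = 0.0235 by limma), against 0.45 and 0.41 in feature 2801, the one among the 96. Whether features of a gene detect the same transcript, or also a related one, was not tested.

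**Figure D5:**
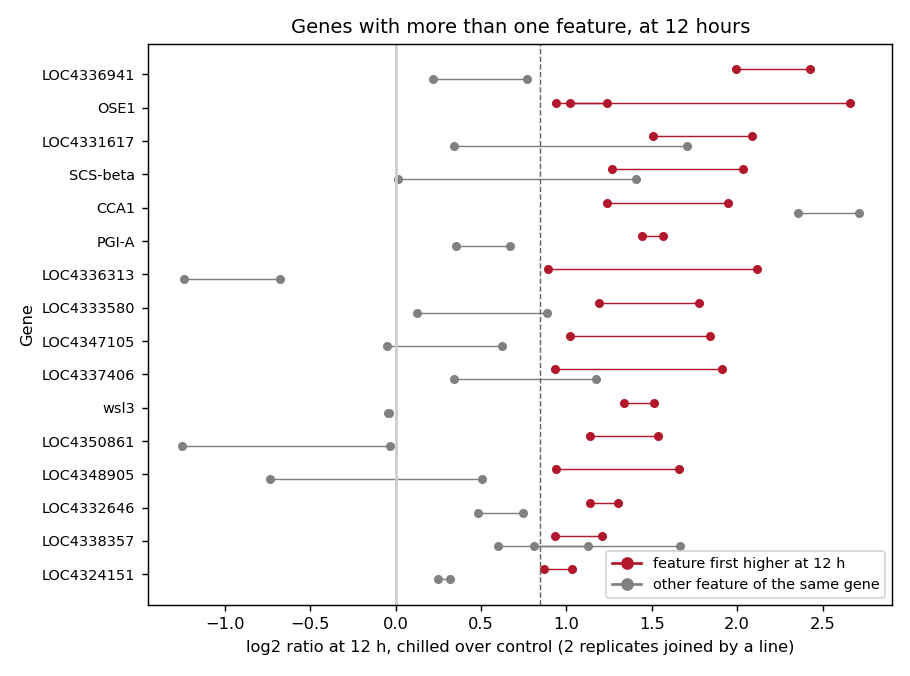
Log2 ratio at 12 hours (x axis) in the 2 replicates, joined by a line, for the 16 genes with more than 1 feature (y axis). Red marks the features first higher at 12 hours and grey the other features of the same gene, of which only that of CCA1 lies past the dashed 1.8-fold line in both replicates.

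Fixed lists of gene symbols and annotations covered other processes, and 14 of the 96 features fell in 9 of 20 lists. Several lists, those for chaperones and reactive oxygen among them, took features also by annotation in the study's list of chilling-induced genes. That list was drawn from these same samples, so the counts and medians of such lists include features chosen for high values. The 96 features are 1.58% of the array, a share that gives less than 1 feature in a list of the sizes that follow. None of the 96 belonged to the list for transcription factors (35 features) or that for sucrose, starch and cell wall sugars (26). The same held for ubiquitin and proteasome (24), other hormones (21), cytoskeleton (17) and membrane transport and channels (16). In the list for cold and dehydration LTP was the single feature of 6 that was higher at 12 hours, and the list's median there was 0.02. In the list for reactive oxygen and thiol redox the ferritin feature was the single one of 15, and at 24 hours 2 features of this list fell and 0 rose. For chaperones and folding the median over 10 features was 0.63 at 12 hours and 0.77 at 24 hours, with PDIL1-1 as the single feature that was higher at 12 hours and 0 that passed the test at 24 hours.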

How the data were processed

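The authors scanned the slides, subtracted the background from the median intensity of each channel, and deposited 20 columns of log2 ratios of chilled (Cy3) over control (Cy5), 1 for each of the 2 spot sets of 10 slides, normalized per the methods to a mean ratio of 1. Intensities and the signal over background were not used here, and precision is limited by the number of arrays. In the deposited values the mean ratio is not 1 (13.8 and 14.5 in the columns of replicate 2 at 2 hours).

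Both of those columns were multiplied by -1, each column's median was set to 0 and the spot sets were averaged. With limma 3.58.1 in R 4.3.3 a mean per time point was fitted to the 5926 features with all 10 values (5 residual degrees of freedom), and 24 hours was tested against 0, two-sided, with Benjamini-Hochberg adjustment over all features at 0.05. The script was tested on simulated data. 0 columns were left unused.

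Named features were those with a symbol or an annotation in the study's list, the 10 highest at 12 hours, the 10 highest and 10 lowest at 24 hours, every call, the 5 on each side of the threshold and other features of the same genes. LOC4324712, LOC4336313, LOC4332687, LOC4340150, IAA3 and IAA30 were named after their values had been seen. Genes came from the platform annotation, with symbols from RefSeq (ASM3414082v1). Members, lists and tests were chosen with earlier results of these data known. Alternatives changed the centring, sign, spots, features, fold rule, time points, block and replicates. Promoter sequences were not analysed here.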

Additional observations from a re-analysis of the deposited data

Results flagged for a closer look

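Some of the 96 features lay on opposite sides of 0 at 12 hours and at another time point in every replicate. They were above 0 in both replicates at 12 hours by the rule that chose them, and below 0 in both replicates at 0.5 hours in 14 features, at 2 hours in 20, at 6 hours in 2 and at 24 hours in 1. Of all features 32.7% were below 0 in both replicates at 24 hours. That share was not counted at the earlier times, so the counts there are not read as particular to the 96. Below 0 in both replicates at both 0.5 and 2 hours were CIPK2, IAA19, PDX11, OSE1 feature 3877, LOC4324711, LOC4326632, LOC4332687, LOC4334073 and LOC4342824. The single feature at 24 hours was LOC4348620, with log2 ratios of -0.18 and -0.42. The differences between the time points were not tested, since the values of the first 4 time points had chosen the features.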

How the results depend on the processing

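With the mean ratio of each column set to 1, in place of the median log2 ratio set to 0, the median of all features moved by -0.32 at 24 hours (0.11 with columns as deposited). 47 features then met the rule, 33 of them among the 96, 5 were at 1.8-fold or more in both replicates at 24 hours, the median was 0.44 and 2 rose by limma, of 17 among all features, where 45 fell. With columns as deposited 36 were at 1.8-fold or more at 24 hours and 21 rose, of 116. Fold rules of 1.5 and 2 gave 190 and 60 features, of which 58 and 10 were past the fold at 24 hours, and with 2-fold 7 rose. The rule on the mean of the replicates gave 265 features and 113 past it at 24 hours.

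Counts that rose by limma, among the 96 or their counterpart and among all features, were 2 and 5 with the sign of replicate 2 at 2 hours as deposited, 3 and 41 with spot set 1, 4 and 39 with spot set 2, 20 and 134 with spot sets apart, 2 and 10 with no requirement of all 10 values, and 0 and 0 with the 24 hour slides alone. Without the 12 hour slides, an alternative added after seeing the data, 6 of the 96 rose. 0 fell in any alternative. Leaving out 1 replicate, the rule gave 62 to 609 features, 12 to 68 were past 1.8-fold at 24 hours, the median there was 0.57 to 1.04, and 0 to 20 rose, of 5 to 197 among all features. The count was 0 without replicate 1 of 24 hours, 2 without either replicate of 2 hours and 4 without either replicate of 6 hours. The cause was not tested.

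The labels do not say that a replicate number is shared between time points. The differences between replicates 1 and 2 correlated at 0.21 to 0.28 among 6, 12 and 24 hours and over 0.1 in 5 of 10 pairs of time points, with the lowest at -0.26 between 0.5 and 2 hours, so the numbers were not taken to pair the samples and a shared effect at the later times was not tested. With the replicate number as a block 9 of the 12 calls passed, and 73 features rose in all. No alternative turned the direction of a named feature that had passed the test.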
